A study of Mus musculus with 5 samples.

Results

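The 33 genes described here encode the enzymes of glycolysis, the carriers of glucose and lactate, the kinases that set glycolytic flux, and a set of genes of the response to low oxygen. They were listed by symbol, with no measured value in the rule, and all 33 symbols were found among the 27998 genes of the count table. Each of the 33 had at least 1 UMI (unique molecular identifier, one captured RNA molecule). The study profiled single cells of the ocular area of wild-type C57BL/6J mouse embryos, with no other genotype or agent named in the labels, at 12, 16, 20, 24 and 26 somites. For each stage a pair of optic areas from 1 embryo was cut out with a needle and dissociated with trypsin, and 10x Chromium 3′ libraries were made. The cells come in 5 libraries, numbered 1 to 5 by the barcode suffix, and no label ties a number to a stage. The libraries are therefore given one by one, without replicates, and no stages are compared.

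The 5 libraries held 1307, 1656, 1996, 1490 and 1745 barcodes with 41694822 to 72925591 UMIs each. Filters left 8104 cells, and 80 barcodes share their sequence with a barcode of another library. Cells were clustered with the 33 genes and the pathway lists left out, so no class was built from them, and classes were named from marker genes. The optic vesicle-like class had 1486 cells and carried Rax, Lhx2, Six6, Six3, Pax6, Pax2, Vax2 and Mitf. Of its cells, 1, 34, 395, 233 and 823 came from libraries 1 to 5. Other forebrain-like cells numbered 1713, of which 8 came from library 5. Surface ectoderm-like cells numbered 418, cranial neural crest mesenchyme-like cells 1558, head mesoderm-like cells 255, endothelium-like cells 388 and erythroid-like cells 253. A cluster of 460 cells, 125 from library 1 and 330 from library 2, carried 8 of the 10 optic vesicle markers but was left unnamed because its leading genes went against that name. Migratory neural crest-like cells (32, of which 31 came from library 5) were too few for a comparison.

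Glycolysis splits glucose into pyruvate in the cytosol. Pyruvate then enters the mitochondrion or is reduced to lactate by lactate dehydrogenase, a tetramer of A (Ldha) and B (Ldhb) subunits. The A subunit favours lactate formation and the B subunit is known from tissues that oxidise lactate. Hif1a is the oxygen-regulated subunit of hypoxia-inducible factor 1. The prolyl hydroxylases Egln1 and Egln3 mark it for degradation when oxygen is present, and when oxygen is low it raises most glycolytic genes. Early embryos and retinal progenitors are known for high glycolysis also in the presence of oxygen.

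Hypoxia-inducible factor binds a short core, ACGTG or GCGTG, and promoter windows of the members were read for it on both strands. RefSeq promoter windows (GRCm38.p6, 250 bases before the start in that table) matched 32 of the 33 members, all but Slc2a3. The core was present in 26 of the 32 windows (81.2%). The same letters occurred in 38.6% of all 27025 promoter windows and in 61.9% of the 3818 windows of genes at 20 CPM or more over all cells. CPM are the UMIs of a gene per 1000000 UMIs. By role, the core was in 5 of 7 windows of glucose entry and upper steps, 5 of 9 of the lower steps, 4 of 4 of lactate genes, 4 of 4 of flux regulators and 8 of 8 of the hypoxia-response genes. At least 2 matches were found in 56.2% of member windows against 16.8% of all windows and 31.8% of those of the expressed genes. The palindrome CACGTG gives a match on each strand, and both were counted. Windows without the core held 208 (Pkm), 193 (Aldoa), 167 (Gpi1), 138 (Tpi1), 61 (Eno2) and 0 (Hk1) bases of annotated exon among their 250. Some windows with the core held exon too, such as Pfkfb3 (148) and Pfkfb4 (124). The part of exon sequence in the counts by role was not tested.

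Windows of 4 members are printed. Ldhb, the lactate carrier Slc16a1 and the oxygen sensor Egln3 met the size rule given below between optic vesicle-like cells and surface ectoderm. Ldha, the other lactate dehydrogenase subunit, met it only against erythroid cells. Each is written 5′ to 3′ on the gene's strand, with the core or its reverse complement in capitals. It ends at the base before the start of the most upstream RefSeq entry used for the gene. That start can lie inside the gene span of GENCODE. The Ldha window lies within its GENCODE span (chr7:46841475-46855627), as do windows of other members such as Hif1a and Ankrd37. The Ldha window is chr7:46845554-46845803 (plus strand, 5 matches) and the Ldhb window chr6:142507958-142508207 (minus strand, 1 match). The Slc16a1 window is chr3:104638414-104638663 (plus strand, 4 matches) and the Egln3 window chr12:54203875-54204124 (minus strand, 1 match). A match describes letters and not a bound site.
Ldha: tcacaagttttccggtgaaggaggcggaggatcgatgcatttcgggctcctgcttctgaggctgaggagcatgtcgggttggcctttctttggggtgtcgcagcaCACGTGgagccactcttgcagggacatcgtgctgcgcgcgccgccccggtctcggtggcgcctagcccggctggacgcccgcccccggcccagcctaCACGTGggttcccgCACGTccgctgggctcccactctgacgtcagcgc
Ldhb: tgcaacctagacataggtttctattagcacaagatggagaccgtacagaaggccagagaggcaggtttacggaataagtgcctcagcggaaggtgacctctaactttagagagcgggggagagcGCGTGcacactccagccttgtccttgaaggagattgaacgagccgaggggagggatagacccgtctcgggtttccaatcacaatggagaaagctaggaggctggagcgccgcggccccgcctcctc
Slc16a1: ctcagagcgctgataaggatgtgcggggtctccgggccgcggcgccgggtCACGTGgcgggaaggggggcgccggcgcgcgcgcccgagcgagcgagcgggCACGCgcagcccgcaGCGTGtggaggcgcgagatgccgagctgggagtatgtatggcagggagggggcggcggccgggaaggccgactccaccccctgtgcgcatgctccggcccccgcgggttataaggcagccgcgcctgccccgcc
Egln3: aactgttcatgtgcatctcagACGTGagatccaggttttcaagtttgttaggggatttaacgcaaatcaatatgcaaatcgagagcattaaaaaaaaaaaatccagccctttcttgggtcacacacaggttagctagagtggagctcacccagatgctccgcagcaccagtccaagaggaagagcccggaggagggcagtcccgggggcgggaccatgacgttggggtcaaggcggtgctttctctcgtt

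Levels are given as CPM over the pooled cells of a class, with 95% intervals that cover counting error only. The libraries count transcript 3′ ends, so a level does not grow with transcript length. Summed over the 33 members, optic vesicle-like cells had 12659 CPM, or 1.27% of their UMIs. Other forebrain-like cells were highest among the large named classes with 15519 CPM. The unnamed cluster had 14253, crest mesenchyme 12269, head mesoderm 11710, surface ectoderm 10650, endothelium 8817 and erythroid cells 4205 CPM. A few enzymes made up most of the sum. In optic vesicle-like cells Gapdh, Ldha, Pkm, Eno1 and Pgam1 together gave 76.9% of it, and the top 5 members of the other classes gave 70.7 to 78.8%. At 20 CPM or more were 23 of the 33 members in optic vesicle-like cells, 23 in other forebrain, 20 in crest mesenchyme and 15 in erythroid cells. Pooled over libraries, 15 of the 33 members had their highest class level in other forebrain-like cells, 5 in endothelium, 4 in head mesoderm, 3 in surface ectoderm, 2 in erythroid cells, 2 in migratory crest and 2 in optic vesicle-like cells (Ldhb and Eno2, the latter at 0.883 CPM). This order rests on unequal mixes of libraries. It leaves out the small neuron-like (32 cells) and myeloid-like (37 cells) classes and the unnamed clusters, where a member could be higher. Below, statements on the highest class or on all named classes hold for the classes of this order. Neither the order nor the within-library counts that follow were computed over all genes. Within libraries 2, 3 and 4, optic vesicle-like cells were above other forebrain-like cells for 21, 9 and 16 of the 33 members, and Gapdh was 3799 against 3027 CPM in library 2.

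**Figure D1:**
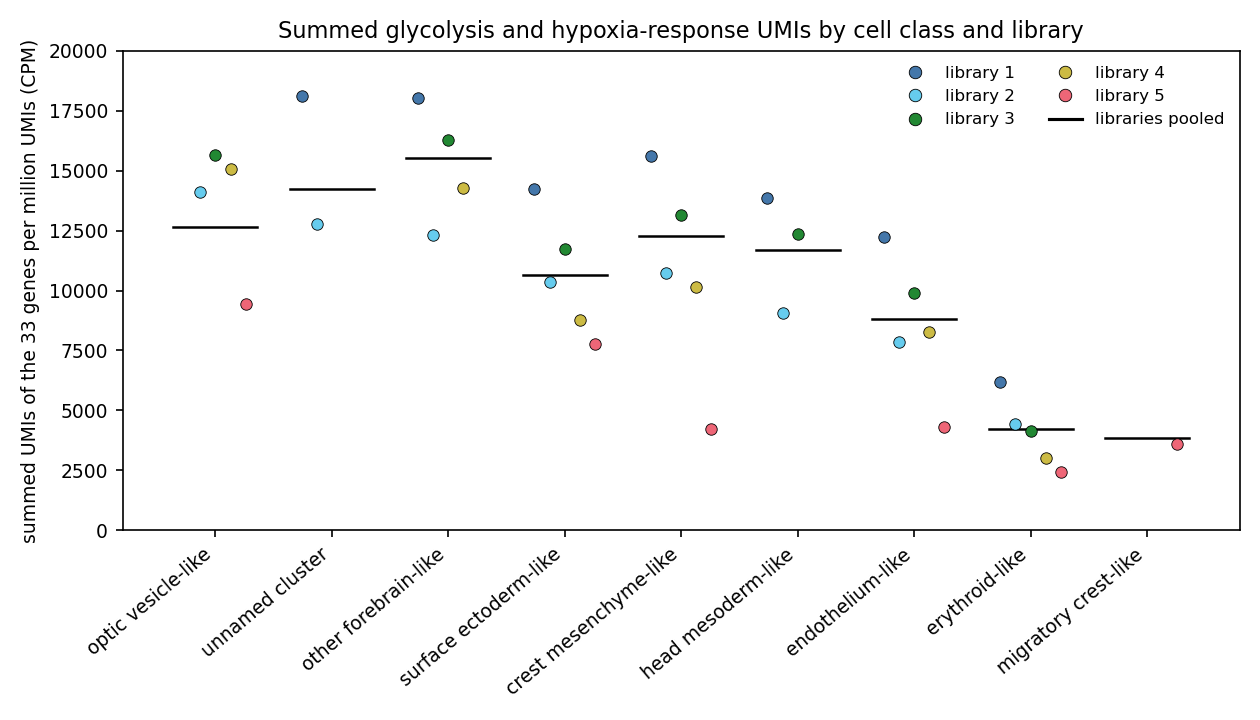
Summed CPM of the 33 genes (vertical axis) in each cell class (horizontal axis); dots are libraries with at least 20 cells of the class and lines the pooled libraries. In crest mesenchyme the libraries spread from 4219 CPM in library 5 to 15626 CPM in library 1, and erythroid cells (4205 CPM pooled) and the 32 migratory crest-like cells (3858 CPM) lie lowest.

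The sum also differed between libraries of a class. In optic vesicle-like cells it was 14095, 15667, 15078 and 9452 CPM in libraries 2 to 5. Libraries 2 to 4 lay close together and library 5 lay below them. In other forebrain-like cells it was 18009, 12322, 16290 and 14266 CPM in libraries 1 to 4. Within a library, the ratio of the optic vesicle-like to the forebrain-like sum was 1.14, 0.962 and 1.06 in libraries 2, 3 and 4, while the pooled ratio was 0.816 (0.813 to 0.818). The pooled ratio sets 823 optic vesicle-like cells of library 5 against 8 forebrain-like cells there, and so compares unequal mixes of libraries. Against surface ectoderm the sum was 1.36, 1.34, 1.72 and 1.22 times as high in libraries 2 to 5, and against endothelium 1.80, 1.59, 1.82 and 2.20 times. Against crest mesenchyme the ratios were 1.32, 1.19, 1.49 and 2.24.

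Class differences of single genes were read by a rule of size, because the libraries carry no stage and were not treated as replicates of a group. A gene met the rule where the pooled CPM differed at least 2-fold, the higher class had 20 CPM or more, the counting interval of the ratio excluded 1, and every library with 20 cells of both classes (at least 2) showed the same direction. Fewest genes met the rule against other forebrain-like cells, a background of 2.05% of the 5116 genes at 20 CPM (1.06% higher and 0.997% lower). Of the 33 members, 2 met it there. Ldhb was higher and Slc2a3 lower. Against surface ectoderm 4 members met it (background 7.17%, of which 1.86% higher and 5.31% lower), namely Ldhb higher and Slc2a3, Slc16a1 and Egln3 lower. Against crest mesenchyme 4 met it (8.60%, of which 4.52% higher and 4.08% lower), with Slc2a1, Slc2a3, Ldhb and Ddit4 higher. Against head mesoderm 4 met it (9.33%, of which 3.72% higher and 5.61% lower), with Slc2a1, Slc2a3 and Ldhb higher and P4ha2 lower. Against endothelium 5 met it (23.3%, of which 8.59% higher and 14.7% lower), with Slc2a3, Hk2, Ldhb and Ddit4 higher and Pdk1 lower. Against erythroid cells 17 were higher and 2 lower (52.8%, of which 47.9% higher and 4.90% lower). The members below 20 CPM in both classes could not meet the rule: 9 or 10 of the 33 in the first 5 comparisons and 8 against erythroid cells. The median log2 ratio of the members at 20 CPM was -0.28 against other forebrain, 0.23 against ectoderm, -0.03 against crest mesenchyme, -0.02 against head mesoderm and 0.35 against endothelium. The medians of all genes tested lay between -0.11 and 0.06 in these 5 comparisons. All these medians come from pooled ratios, which compare unequal mixes of libraries. Medians within libraries were not computed.

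**Figure D2:**
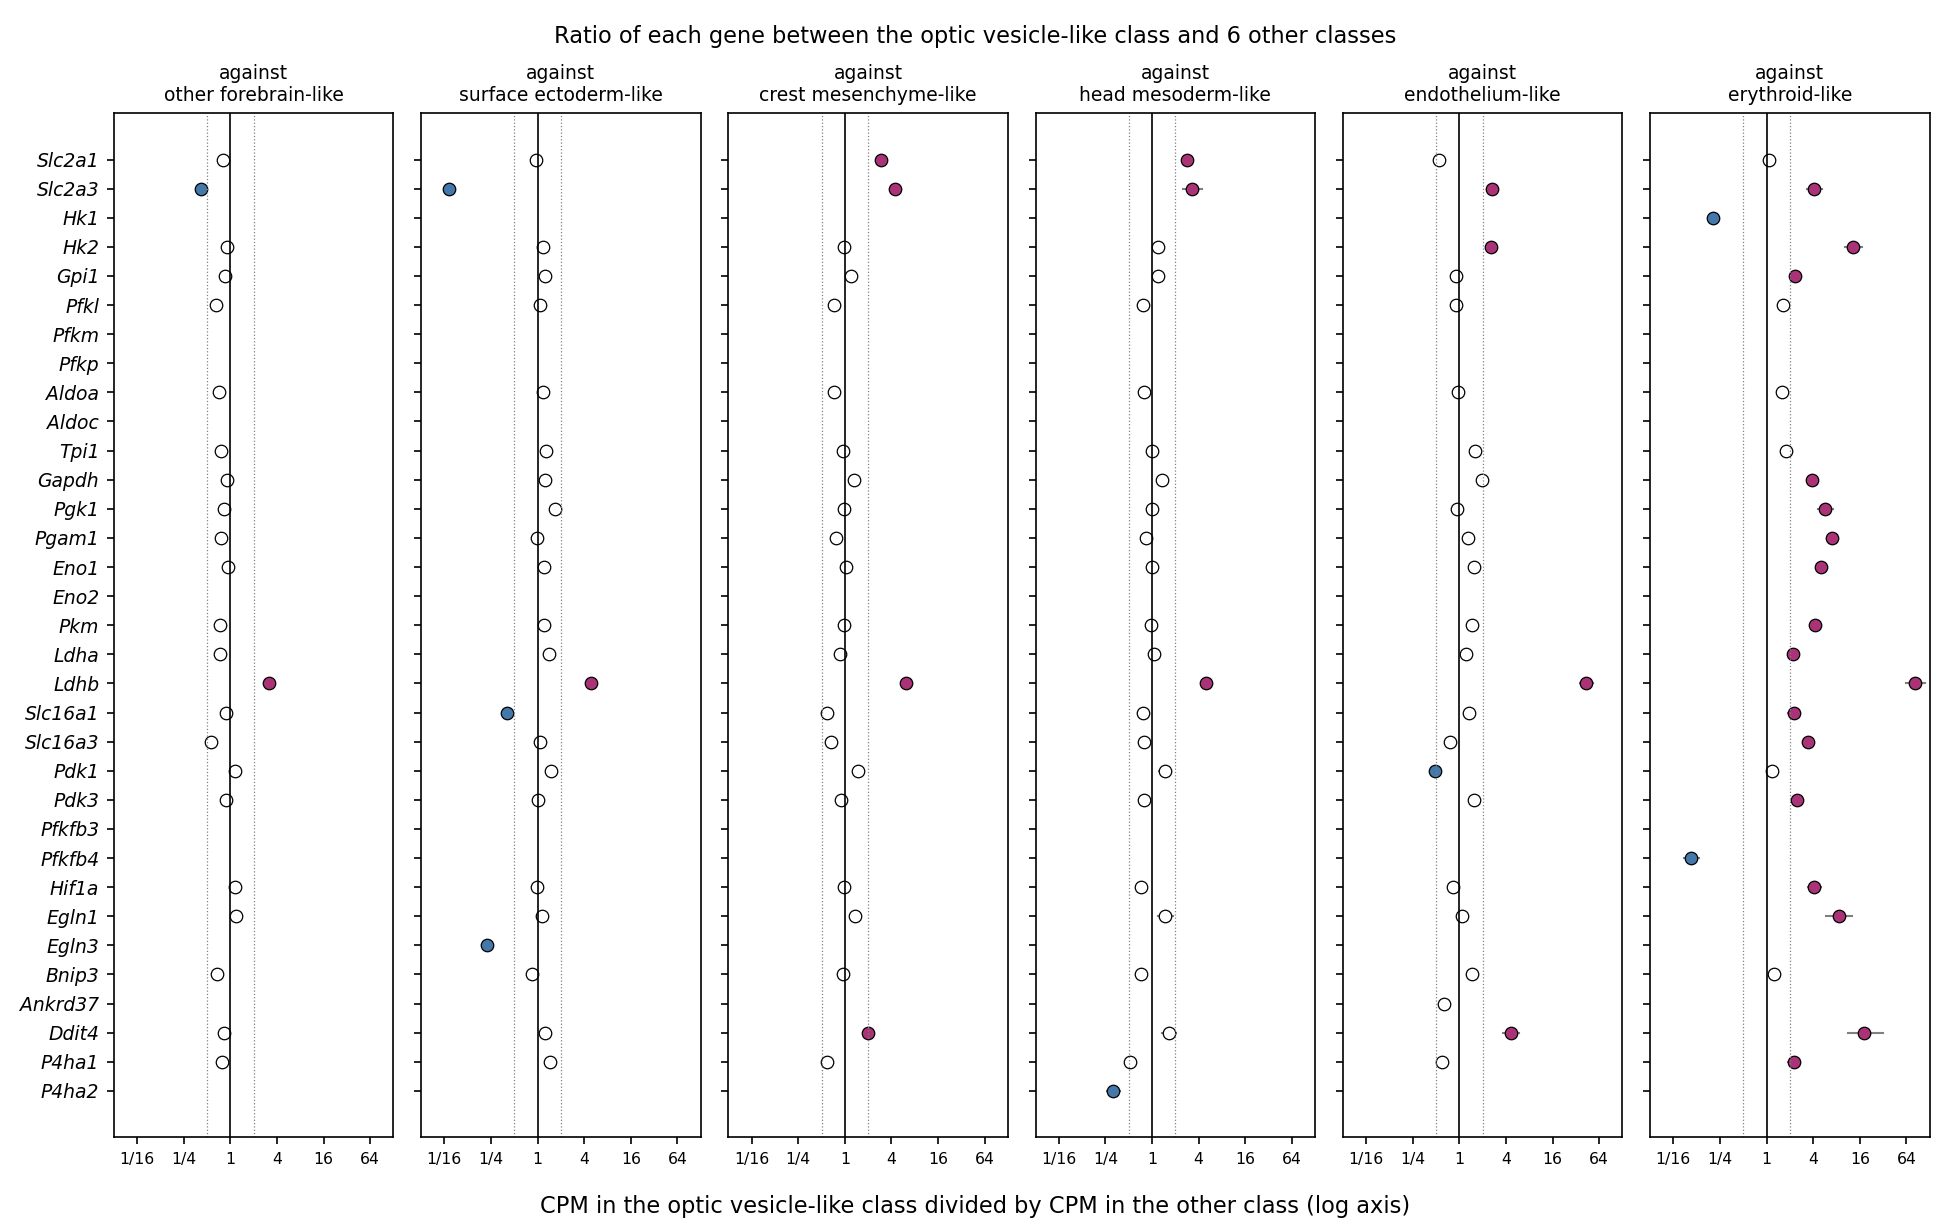
CPM in the optic vesicle-like class divided by CPM in each of 6 other classes (horizontal log axis) for members at 20 CPM or more in the higher class; purple dots met the size rule as higher, blue dots as lower, open dots did not meet it, bars are 95% counting intervals and dotted lines mark 2-fold. Ldhb is purple in all 6 panels, from 3.15-fold against other forebrain to 82.6-fold against erythroid cells.

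Glucose enters cells through the facilitative transporters Slc2a1 (GLUT1) and Slc2a3 (GLUT3, a high-affinity form). Slc2a1 (chr4:119108711-119137983, GRCm38) was at 196, 169, 169 and 149 CPM in optic vesicle-like cells of libraries 2 to 5. Pooled, it was highest in endothelium (295 CPM), with 380, 286, 295, 282 and 218 CPM in libraries 1 to 5, which lay above the optic vesicle-like value in each of libraries 2 to 5. Crest mesenchyme had 83.0, 50.4, 51.5, 39.6 and 20.2 CPM, and head mesoderm 67.9, 49.8 and 53.1 CPM in libraries 1 to 3. Optic vesicle-like cells thus lay above both mesenchymal classes in every shared library, 2.89-fold (2.76 to 3.02) above crest and 2.86-fold (2.56 to 3.20) above head mesoderm pooled. In surface ectoderm Slc2a1 was 445 CPM in library 1 and 75.1 to 156 CPM in the other four libraries, and in other forebrain 424 CPM in library 1 and 103 to 150 CPM in libraries 2 to 4. Both lay above endothelium in library 1. Library 1 was the highest library for Slc2a1 in each of the 7 plotted classes that had 20 cells there.

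Slc2a3 (chr6:122727809-122801640) was by far the most class-dependent of the glucose transporters. Surface ectoderm had 1203, 382, 269, 267 and 383 CPM in libraries 1 to 5. Optic vesicle-like cells had 72.5, 51.3, 23.7 and 16.3 CPM in libraries 2 to 5, below ectoderm in all 4 and 5.26-, 5.24-, 11.3- and 23.6-fold lower. Pooled, they were 14.1-fold lower (13.3 to 14.9), and 0.126 times as high with libraries weighted equally. Without library 3 the ratio was 0.0396. Slc2a3 was not used to build the clusters, but it was among the 10 leading genes of the ectoderm cluster led by Sostdc1, Krt7 and Wnt6 (763 CPM), against 211 CPM in the cluster led by Pitx1. The ectoderm mix differed by library: libraries 1 to 5 had 16, 37, 27, 41 and 66 cells in the former and 30, 72, 93, 36 and 0 in the latter. Mesenchyme and endothelium were low. Crest mesenchyme had 3.32 to 13.2 CPM over 5 libraries, and endothelium 24.8, 15.4, 10.1, 4.65 and 2.05 CPM. Optic vesicle-like cells were 4.43-fold (3.94 to 5.0) above crest, 3.26-fold (2.49 to 4.35) above head mesoderm and 2.68-fold (2.26 to 3.19) above endothelium. Without library 3 the ratios to crest (2.45) and endothelium (1.63) no longer met the rule. Equal weights gave 9.02 for crest, 11.2 for head mesoderm and 5.10 for endothelium.

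The difference of Slc2a3 from other forebrain was 2.42-fold (2.28 to 2.56) pooled, but it was small within libraries. Other forebrain had 146, 74.3, 53.4 and 39.0 CPM in libraries 1 to 4. The within-library ratio of optic vesicle-like to other forebrain was 0.975, 0.961 and 0.609 in libraries 2, 3 and 4, and equal weights gave 0.885. The call was also lost without library 1 (0.566) or library 5 (0.581), and without library 3 the ratio was 0.225. The unnamed cluster had 113 and 75.3 CPM in libraries 1 and 2, and counting it as optic vesicle ended the call as well (0.576). Of the summed Slc2a1 and Slc2a3 UMIs, Slc2a3 gave 71.7% (70.7 to 72.7) in surface ectoderm, 27.4% in other forebrain, 16.1% (15.4 to 16.8) in optic vesicle-like cells, 11.1% in crest and 3.73% in endothelium. The ectoderm share was 64.1 to 78.1% over the 5 libraries and the optic vesicle-like share 9.82 to 27.0% over 4, so the libraries of these classes did not overlap.

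**Figure D3:**
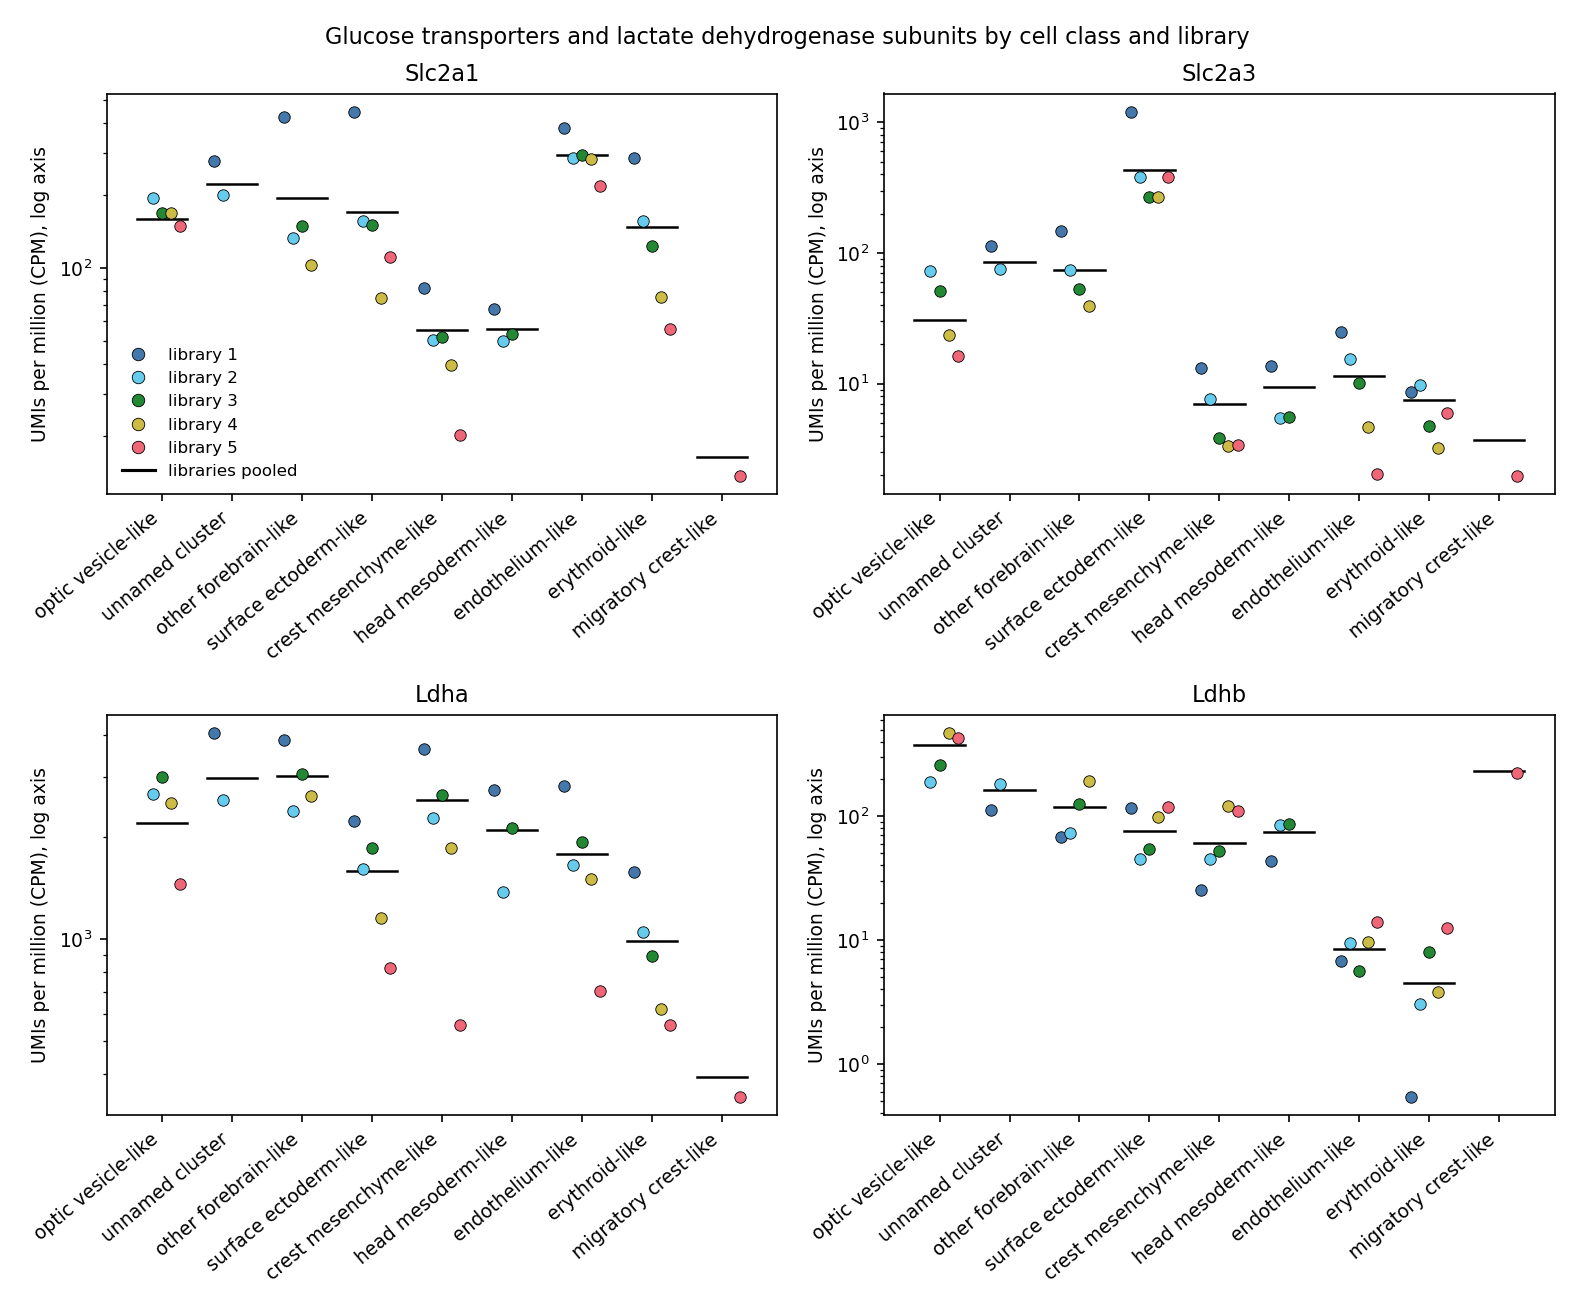
CPM (vertical log axis) of Slc2a1, Slc2a3, Ldha and Ldhb in 9 cell classes (horizontal axis); dots are libraries with at least 20 cells of the class, coloured by library, and lines the pooled libraries. Slc2a3 is highest in surface ectoderm (431 CPM pooled), and Ldhb is highest in optic vesicle-like cells (372 CPM pooled).

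Hexokinase traps glucose as glucose 6-phosphate, and its forms differed between blood, vessel and the other classes. Hk2, the inducible form, was at 87.5, 88.4, 85.0 and 64.1 CPM in optic vesicle-like cells of libraries 2 to 5, and Hk1 at 4.60, 4.17, 5.99 and 7.58 CPM. Endothelium had 41.9, 39.4, 24.3, 27.9 and 19.0 CPM of Hk2 in libraries 1 to 5 and 15.8 to 22.6 CPM of Hk1. Hk2 in optic vesicle-like cells was 2.56-fold (2.30 to 2.85) above endothelium and above it in each of libraries 2 to 5. Erythroid cells had 3.25 to 10.3 CPM of Hk2 and 20.0 to 38.4 CPM of Hk1. Hk1 gave 83.8% (79.7 to 87.3) of hexokinase UMIs of this pair in erythroid cells and 37.7% (33.9 to 41.6) in endothelium. In optic vesicle-like cells it gave 7.37%, and in crest, head mesoderm, ectoderm and other forebrain 5.67 to 9.03%. The lowest erythroid library (68.3%) lay above the highest endothelial one (54.3%).

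The upper steps after hexokinase ran mostly through one form each. Gpi1, the glucose phosphate isomerase, was at 206, 278, 278 and 161 CPM in optic vesicle-like cells of libraries 2 to 5. Phosphofructokinase is the committed step of glycolysis, and its liver-type subunit Pfkl was at 186, 180, 154 and 88.0 CPM there. The muscle-type Pfkm was at 6.90 to 14.0 CPM and the platelet-type Pfkp at 0.567 to 1.30 CPM. Pfkl gave 91.2% of the UMIs of the 3 subunits in optic vesicle-like cells and 84.7 to 93.1% in the other named classes with over 200 cells. Pfkp reached 10.0 CPM in endothelium, its highest class, where it gave 6.34%.

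The lower glycolytic steps included the most abundant member, Gapdh, and none of their 9 genes met the size rule outside erythroid cells. Without library 5, Pgk1 met it against ectoderm (2.26). Gapdh, which makes NADH, was at 3799, 4514, 4886 and 2994 CPM in optic vesicle-like cells of libraries 2 to 5. Pkm, the pyruvate kinase of most tissues, was at 2279, 2311, 2263 and 1138 CPM, and Aldoa, the aldolase of most tissues, at 1047, 1082, 912 and 558 CPM. Pgam1, the phosphoglycerate mutase, was at 1112, 975, 936 and 692 CPM. For these 4 genes library 5 was the lowest. In library 5 crest mesenchyme was lower still, and optic vesicle-like cells were 2.79-fold above it for Gapdh, 2.14-fold for Aldoa and 2.03-fold for Pkm. The brain-type forms were scarce, with Aldoc at 1.43 CPM and Eno2 at 0.883 CPM in optic vesicle-like cells against 809 CPM of Aldoa and 1080 CPM of Eno1. Gapdh lay 1.98-fold above endothelium. It met the rule there without library 1 (2.04), library 3 (2.01) or library 5 (2.15).

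Pgk1 and Eno1 have near-identical copies in the gene table, and reads that fit both can be lost or split in counting, so their levels are uncertain. Over all cells Pgk1, the phosphoglycerate kinase on chromosome X, was at 41.5, 16.8, 75.1, 22.9 and 17.7 CPM in libraries 1 to 5. Its copy Pgk1-rs7 was at 0.641 to 1.5 CPM with its highest value in library 3 too. Eno1, the main enolase, was at 1045, 742, 1366, 907 and 632 CPM and its copy Eno1b at 10.2, 6.25, 19.1, 7.89 and 6.10 CPM. Pgk1 in optic vesicle-like cells was 18.4, 78.6, 25.7 and 20.0 CPM in libraries 2 to 5 and in other forebrain 45, 15.7, 81.3 and 26.4 CPM in libraries 1 to 4. Library 3 was thus high in both classes. The part of the copies in this was not tested. Leaving Pgk1, Eno1 and Aldoa out of the sum of members gave a library range of 1.60-fold in optic vesicle-like cells, against 1.66-fold with them.

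Ldhb (chr6:142490249-142507957) met the size rule in each of the 6 comparisons. It was at 190, 257, 471 and 427 CPM there in libraries 2 to 5. Other forebrain had 67.5, 73.2, 126 and 193 CPM in libraries 1 to 4. The unnamed cluster had 113 and 181 CPM in libraries 1 and 2, and in library 2 it was thus close to the 190 CPM of the 34 optic vesicle-like cells. Optic vesicle-like cells lay above other forebrain 2.60-, 2.05- and 2.44-fold within libraries 2, 3 and 4, and 3.15-fold (3.06 to 3.24) pooled. Surface ectoderm had 116, 45.2, 54.6, 98.3 and 119 CPM, and crest mesenchyme 25.5, 45.5, 52.2, 120 and 110 CPM in libraries 1 to 5. The within-library ratios were 3.59 to 4.8 against ectoderm and 3.88 to 4.93 against crest, with pooled ratios of 4.89 (4.59 to 5.21) and 6.10 (5.86 to 6.34). Head mesoderm had 43.6, 84.8 and 86.7 CPM in libraries 1 to 3, and the ratio was 4.98 (4.53 to 5.48) pooled but 2.61 with equal weights. In no shared library did one of these named classes reach the optic vesicle-like level. Counting the unnamed cluster as optic vesicle ended the call against ectoderm (4.28). In library 1 that cluster had 113 CPM and ectoderm 116 CPM.

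Ldhb was nearly absent from vessel and blood. Endothelium had 6.84, 9.50, 5.65, 9.72 and 13.9 CPM in libraries 1 to 5, which put optic vesicle-like cells 20.0- to 48.5-fold higher within libraries and 43.7-fold (36.2 to 53.2) pooled. Erythroid cells had 0.541, 3.06, 7.96, 3.78 and 12.6 CPM. The 32 migratory crest-like cells had 231 CPM, the second highest level of a named class. After each cell was thinned to 10000 UMIs, at least 1 Ldhb UMI was found in 91.9% (90.4 to 93.3) of 1438 optic vesicle-like cells and 59.3% of 1675 other forebrain-like cells. It was found in 7.87% (5.38 to 11) of 381 endothelium-like and 6.32% (3.66 to 10.1) of 253 erythroid-like cells. Before thinning these shares were 97.6%, 81.6%, 23.7% and 14.2%, at median depths of 29717, 27159, 28136 and 42576 UMIs.

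Ldha (chr7:46841475-46855627), the A subunit, followed another order. It was at 2674, 2999, 2510 and 1457 CPM in optic vesicle-like cells of libraries 2 to 5 and at 3869, 2381, 3074 and 2639 CPM in other forebrain of libraries 1 to 4. Crest mesenchyme had 3627, 2275, 2658, 1860 and 558 CPM and endothelium 2819, 1650, 1926, 1507 and 703 CPM in libraries 1 to 5. Library 5 was thus the lowest for Ldha in optic vesicle-like cells, crest and endothelium. No pooled ratio of Ldha in the comparisons outside erythroid cells reached 2-fold. Within libraries it was 2.17 against ectoderm in library 4, and 2.61 against crest and 2.07 against endothelium in library 5.

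The share of Ldhb among the UMIs of both subunits therefore differed by class and by library. In optic vesicle-like cells it was 6.63% (5.68 to 7.68), 7.89% (7.68 to 8.11), 15.8% (15.4 to 16.2) and 22.7% (22.3 to 23.1) in libraries 2 to 5. The class lay in different clusters by library, since 32 of 34 cells of library 2 and 394 of 395 of library 3 were in a cluster led by Rax and Six6 that held 3 cells of library 5. Within that cluster the share was 6.61%, 7.87% and 15% in libraries 2, 3 and 4. The unnamed cluster had 2.70% and 6.59% in libraries 1 and 2. Other forebrain had 1.72%, 2.98%, 3.92% and 6.82% in libraries 1 to 4. Surface ectoderm had 4.93%, 2.74%, 2.86%, 7.84% and 12.7%, and crest mesenchyme 0.697%, 1.96%, 1.93%, 6.06% and 16.5% in libraries 1 to 5. In each shared library the optic vesicle-like share was above that of these 3 classes. Libraries 4 and 5 had the highest shares in optic vesicle-like cells, ectoderm and crest alike. Endothelium stayed at 0.242 to 1.93%. In library 5 the crest cells had a median of 10596 UMIs per cell and 3.59% mitochondrial UMIs, against 31026 and 1.78% for the class over all libraries, and the part of this in their share was not tested.

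**Figure D4:**
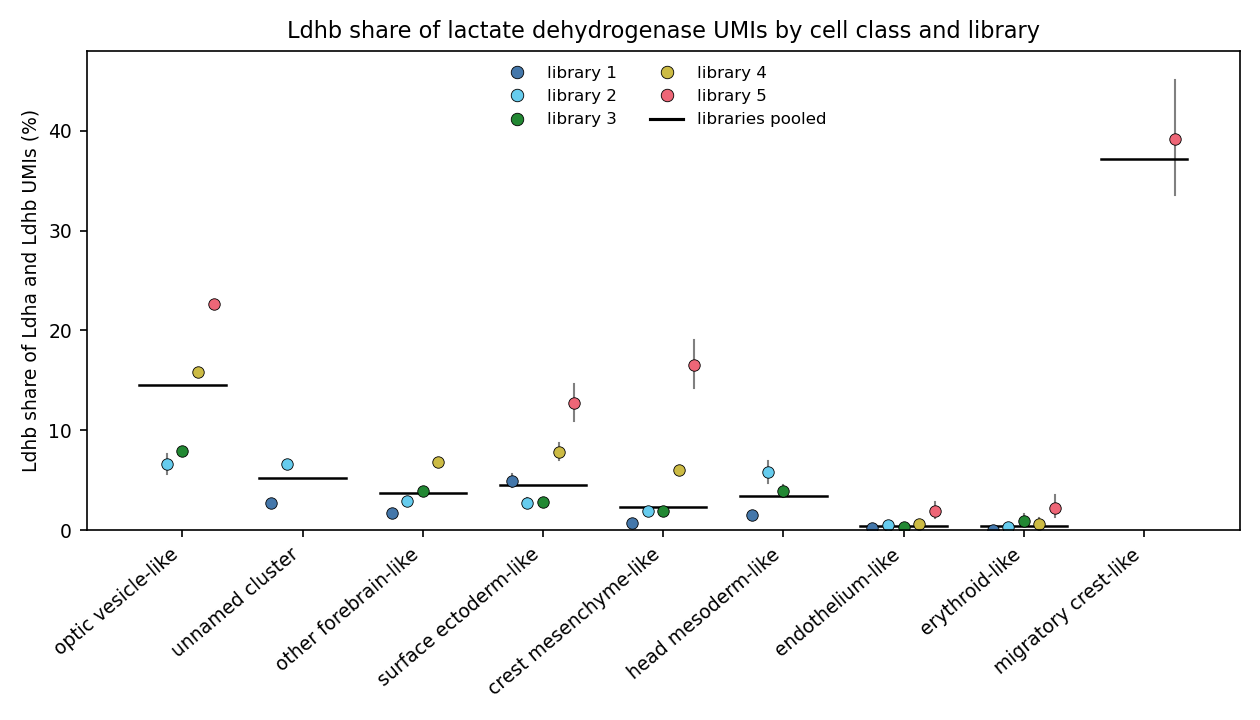
Ldhb UMIs as a percentage of Ldha and Ldhb UMIs (vertical axis) in 9 cell classes (horizontal axis); dots are libraries with at least 20 cells of the class, bars are 95% Clopper-Pearson intervals and lines the pooled libraries. The optic vesicle-like share is 6.63% in library 2 and 22.7% in library 5, and the 32 migratory crest-like cells lie highest with 37.2% pooled.

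Lactate leaves and enters cells through the monocarboxylate transporters Slc16a1 (MCT1) and Slc16a3 (MCT4, an exporter of glycolytic cells). Slc16a1 (chr3:104638668-104658462) was highest in surface ectoderm, with 78.2, 90.7, 56.7, 67.6 and 74.8 CPM in libraries 1 to 5. Optic vesicle-like cells had 42.6, 26.0, 32.9 and 29.7 CPM in libraries 2 to 5, and no value reached the ectodermal range. They were 2.49-fold (2.30 to 2.70) lower. Crest mesenchyme reached 70.3 CPM in library 1, inside the range of the ectodermal libraries, and fell to 28.9 CPM in library 5. Slc16a3 was at 113, 128, 88.4 and 49.2 CPM in optic vesicle-like cells of libraries 2 to 5 and 213, 120, 152 and 107 CPM in other forebrain of libraries 1 to 4. Without library 3 its pooled ratio to other forebrain (0.412) met the rule, but pooling compares unequal mixes of libraries. Within libraries 2, 3 and 4 the levels were 113 against 120, 128 against 152 and 88.4 against 107 CPM. Slc16a3 gave 74.3% of the UMIs of the pair in optic vesicle-like cells, 83.4% in endothelium and 52.1% in ectoderm.

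Pyruvate dehydrogenase kinases keep pyruvate out of the mitochondrion. Pdk1 was highest in endothelium, with 96.2, 90.9, 77.1, 55.4 and 75.0 CPM in libraries 1 to 5, and was 51.8, 31.4, 32.6 and 44.5 CPM in optic vesicle-like cells of libraries 2 to 5. The optic vesicle-like value was the lower one in all 4 libraries and 2.07-fold (1.91 to 2.23) lower pooled. The call was lost without library 1 (0.509) or library 3 (0.524) and with equal weights (0.537). Pdk3 was even over optic vesicle-like cells (43.7, 43.7, 41.8 and 43.7 CPM). It gave 53.3% of the UMIs of the pair there, 59.8 to 68.3% in other forebrain, ectoderm, crest and head mesoderm, and 26.5% (24.2 to 28.9) in endothelium. The bifunctional enzymes Pfkfb3 and Pfkfb4, which set the level of the phosphofructokinase activator, were low in optic vesicle-like cells. Pfkfb3 was at 12.7, 4.66, 4.03 and 6.12 CPM and Pfkfb4 at 6.90, 1.30, 1.85 and 3.24 CPM in libraries 2 to 5. Pfkfb3 was at 8.03 to 14.4 CPM in endothelium. Pfkfb4 was at 30.8, 24.2, 14.3, 16.2 and 19.3 CPM in erythroid cells, where it gave 98.8% of the pair.

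The hypoxia-response genes summed to 189 CPM in optic vesicle-like cells, 209 in other forebrain, 190 in crest mesenchyme, 199 in endothelium and 241 in head mesoderm. Unlike the sum over all members, it was not lowest in library 5 in these cells. It was 208, 159, 184 and 213 CPM in optic vesicle-like cells of libraries 2 to 5, and 218, 189, 184, 166 and 196 CPM in crest mesenchyme of libraries 1 to 5. Hif1a was at 41.4, 31.9, 38.9 and 55.7 CPM in optic vesicle-like cells, and its highest class was head mesoderm with 67.9, 63.8 and 50.9 CPM in libraries 1 to 3. Egln1, the main oxygen sensor, was at 18.4, 18.6, 19.5 and 28.6 CPM in optic vesicle-like cells. Both had their highest optic vesicle-like value in library 5.

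Egln3 (chr12:54178981-54203860), an inducible oxygen sensor, was highest in surface ectoderm when pooled, with 20.6, 33.9, 26.8, 32.1 and 25.4 CPM in libraries 1 to 5. Optic vesicle-like cells had 0, 4.17, 7.08 and 8.11 CPM in libraries 2 to 5 and were 4.49-fold (3.87 to 5.21) lower, with no overlap. Endothelium had 27.8, 16.7, 13.5, 13.5 and 8.22 CPM, above ectoderm in library 1. With haemoglobin, ribosomal protein and mitochondrial UMIs left out of the totals, Egln3 met the rule against endothelium too (0.416). The 0 in library 2 rests on 34 cells and allows a level of up to 4.25 CPM (upper bound of the Poisson interval). Thinned to 10000 UMIs, 24.0% of 409 ectodermal cells and 6.33% of 1438 optic vesicle-like cells had an Egln3 UMI. The unthinned shares were 53.3% and 18.9%. Crest mesenchyme, with 1.45 to 2.81 CPM, had 1.73%. Egln3 gave 58.2% of Egln1 and Egln3 UMIs in ectoderm, 41.9% in endothelium, 21.6% in optic vesicle-like cells and 9.89% in crest.

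Ddit4, a stress-induced brake on mTOR signalling, was at 33.4, 18.3, 33.8 and 30.5 CPM in optic vesicle-like cells of libraries 2 to 5 and at 2.95 to 9.24 CPM in endothelium, a 4.64-fold (3.68 to 5.93) difference. Crest mesenchyme had 10.6 to 15.5 CPM. Its ratio of 2.02 (1.84 to 2.23) lay at the threshold and fell below it without library 1 (1.95), library 2 (1.90) or library 5 (1.78), with size factors (1.96) and with the unnamed cluster counted as optic vesicle (1.97). The 32 migratory crest-like cells had 112 CPM. The collagen prolyl hydroxylases P4ha1 and P4ha2 were highest in head mesoderm. P4ha1 was at 66.1, 45.1 and 54.8 CPM there in libraries 1 to 3 and at 39.1, 27.8, 28.4 and 29.2 CPM in optic vesicle-like cells. P4ha2 was at 30, 21.0 and 16.8 CPM against 8.06, 8.08, 6.32 and 6.93 CPM, a 3.16-fold (2.58 to 3.86) difference that no longer met the rule without library 1 (0.393) or with equal weights (0.427). Bnip3, a mitophagy receptor, spanned 25.4 to 54.7 CPM and Ankrd37 5.51 to 24.3 CPM over the named classes.

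Erythroid-like cells were low in nearly the whole pathway, but so were most genes. Haemoglobin, ribosomal protein and mitochondrial genes took 61.4% of their UMIs against 31.9 to 39.5% in the other 8 classes plotted, and the median log2 ratio of all genes tested was 0.96 against 1.32 for the members. Pgam1 was 7.09-fold (6.70 to 7.5), Eno1 4.99-fold, Pkm 4.27-fold and Gapdh 3.83-fold higher in optic vesicle-like cells. Erythroid Pgam1 was 50.5 to 197 CPM over the libraries. With size factors these ratios were 3.76, 2.65, 2.27 and 2.03. The ratios of Gpi1, Ldha, Slc16a1, Slc16a3, Pdk3 and P4ha1 then were 1.18 to 1.81 and no longer met the rule. Leaving out library 3 ended the calls of Slc2a3 (2.53), Gpi1 (2.0) and Ldha (1.77) and lowered Pgk1 from 5.69 to 3.45. Leaving out library 4 ended that of Slc16a1 (1.99), and leaving out library 5 that of Egln1 (6.94), while Pfkl (2.07) then met the rule. Hk1 and Pfkfb4 were higher in erythroid cells, 4.90-fold (4.19 to 5.74) and 9.31-fold (7.48 to 11.6). Pfkfb4 lost the call with equal weights (0.180).

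Many members varied at least 2-fold between libraries of the same class, called a wide range here. This needs 20 CPM in the highest library, and 23 of the 33 members had that in optic vesicle-like cells. Of these 7 were wide (background 15.9% of genes at 20 CPM): Slc2a3 4.46-fold, Pgk1 4.27-fold, Slc16a3 2.60-fold, Ldhb 2.48-fold, Pfkl 2.12-fold, Ldha 2.06-fold and Pkm 2.03-fold. Slc2a3, Pfkl, Pkm, Ldha and Slc16a3 were lowest in library 5, and without that library 3 members had a wide range. Other forebrain had 6 of 23 (background 6.52%), which became 2 without library 1 and 3 without library 4. Crest mesenchyme had 17 of 21 (39.4%), or 7 without library 5. Surface ectoderm had 15 of 25 (28.8%), or 9 without library 1 and 9 without library 5. Endothelium had 15 of 24 (25.8%), or 7 without library 5. Erythroid cells had 14 of 17 (32.1%), or 7 without library 1. Among the wide members, 15 in crest and 14 in endothelium had their lowest value in library 5. Of the wide members in erythroid cells 14 had their highest value in library 1, in crest 13, in endothelium 12 and in ectoderm 11. The background shares hold for the full set of libraries only. No share of all genes was computed with a library left out, or for the library of the lowest or highest value. The counts with a library left out, and those by lowest or highest library, therefore do not set the members apart from other genes. With all libraries, the part of members with a wide range lay above the background share in each class listed. The cause of this was not tested.

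Cells of library 5 differed in depth and quality measures as well. Their mitochondrial share was 2.22% in optic vesicle-like cells, 2.96% in ectoderm and 3.71% in endothelium, against 1.80%, 2.15% and 2.35% over all libraries. A summed list of 12 dissociation-stress genes was 463 CPM in crest of library 5 and 299 CPM in crest over all libraries, but 259 against 234 CPM in optic vesicle-like cells. The values over all libraries include library 5, which gave 823 of the 1486 optic vesicle-like cells. Crest of library 5 also came mostly from a cluster of 105 cells found in that library alone. An unnamed cluster led by Crym and Irx3, with 399 of its 408 cells in library 5, had a member sum of 4531 CPM. The part of these in the low sums was not tested.

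Within the optic vesicle-like class, a cluster led by Trpm1, Pmel and Dct, genes of pigment cells, was compared with the other clusters of the same library. In library 4 (65 against 168 cells) the member sum was 15080 against 15077 CPM, a ratio of 1.0 (0.988 to 1.01). None of the 33 members at 20 CPM differed 2-fold (background 1.83%). In library 5 (148 against 675 cells) it was 12535 against 8735 CPM, 1.44-fold (1.42 to 1.45) higher in the Trpm1-led cluster. Slc2a1 was 264 against 123 CPM there, 2.15-fold (2.01 to 2.30), and was the one member at 20 CPM that differed 2-fold (background 3.88%). In library 4 Slc2a1 was 161 against 171 CPM. Eno1 (1209 against 626 CPM, 1.93-fold) and Pkm (1811 against 981 CPM, 1.85-fold) came next in library 5. Hk2 and Egln1 went the other way, with 36.1 against 70.6 CPM and 20.6 against 30.4 CPM. Ldhb was 1.15-fold higher in library 4 and 1.2-fold in library 5. Median depth was 27620 against 24687 UMIs in library 5. The rest of the class in library 5 included 215 cells of a shallower cluster with 0.688 of the median depth of its library and a member sum of 7627 CPM, and the part of that cluster was not tested.

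**Figure D5:**
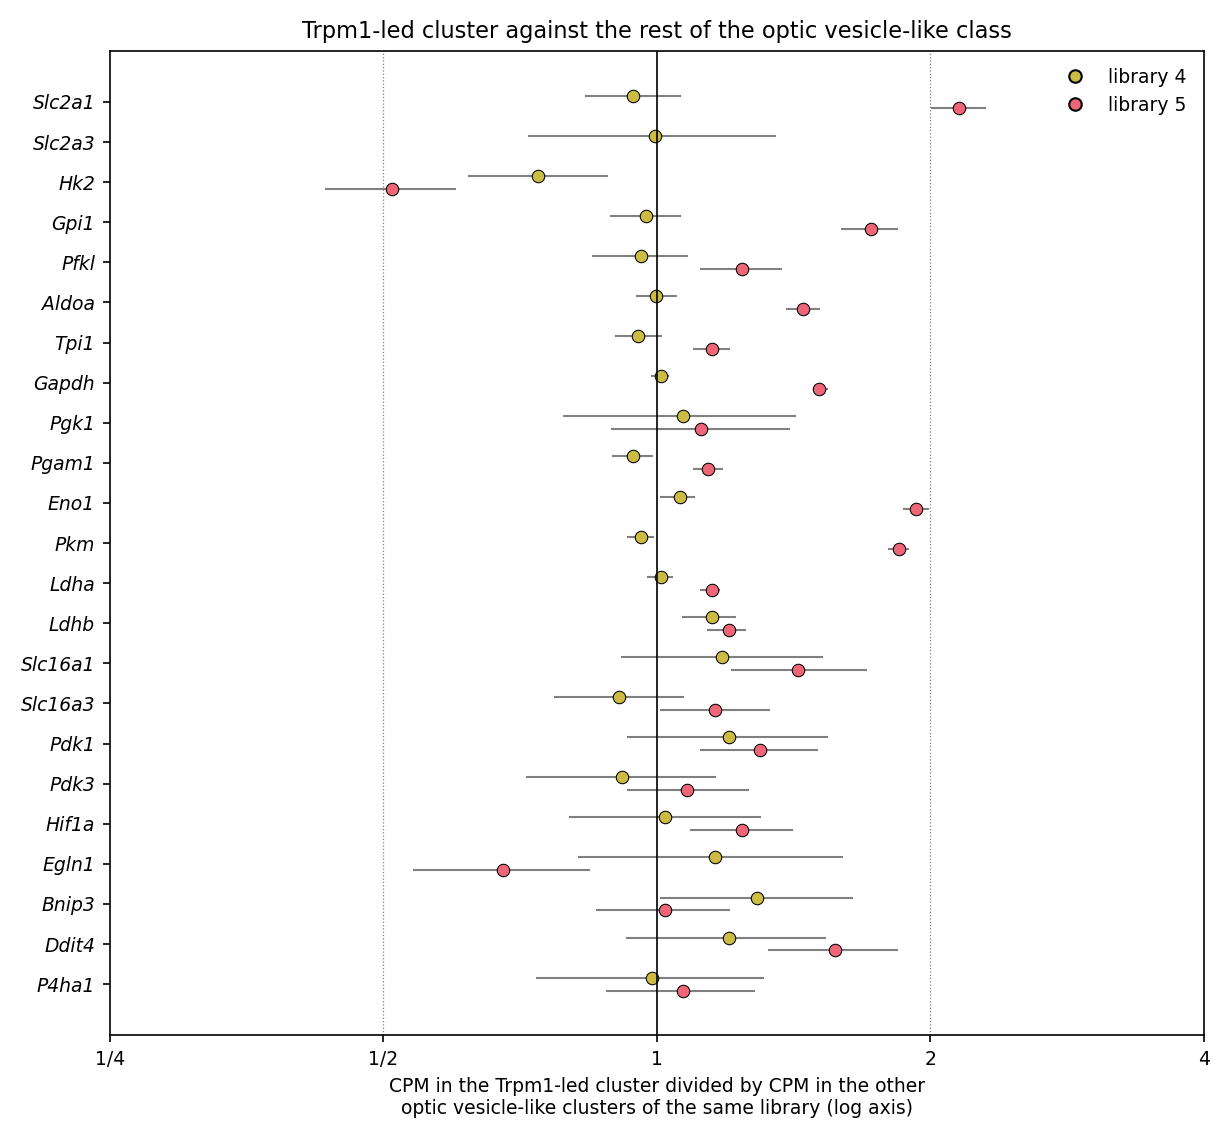
CPM in the Trpm1-led cluster divided by CPM in the other optic vesicle-like clusters of the same library (horizontal log axis) for members at 20 CPM or more; yellow dots are library 4, red dots library 5, bars 95% counting intervals and dotted lines mark 2-fold. Slc2a1 lies at 2.15 in library 5 and at 0.941 in library 4.

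Of 34 further genes of glycolysis and pyruvate use and 25 of the hypoxia response, 0 met the rule against other forebrain. The background there was 2.05% of genes at 20 CPM, so the 0 does not set these lists apart. Genes under 20 CPM in both classes could not meet the rule. In the other comparisons the background shares were those given above for the same classes. Mpc1, a subunit of the mitochondrial pyruvate carrier, was higher in optic vesicle-like cells than in ectoderm (31.4 against 12.9 CPM). Gpd2, the mitochondrial glycerol phosphate dehydrogenase, was higher than in crest (34.5 against 16.4 CPM), head mesoderm (12.3 CPM) and endothelium (17.1 CPM). The collagen lysyl hydroxylase Plod2 was lower than in head mesoderm (13 against 110 CPM). Against endothelium Eno3 (61.9 against 6.03 CPM) and Ak4 (22.6 against 9.12 CPM) were higher. Epas1, the second hypoxia-inducible factor subunit and known from vessels, was lower (0.113 against 30.1 CPM), as was Plod1 (7.88 against 38.4 CPM). Of 12 dissociation-stress genes, 5 were higher in endothelium, whose stress sum was 511 CPM. Among all genes at 20 CPM 14.7% were, but the 12 were counted at any level, so the bases differ. Erythroid cells had more Pklr, the red-cell pyruvate kinase (44.8 against 0.0564 CPM), Bpgm, which makes the haemoglobin ligand bisphosphoglycerate (272 against 32.8 CPM), and Mpc1 (87.5 CPM). Of the 25 hypoxia-response genes, 5 were higher and 2 lower in optic vesicle-like than in erythroid cells. Among all genes at 20 CPM the shares were 47.9% and 4.90%. The 25 include genes under 20 CPM in both classes, such as Vegfa, so these counts and shares have different bases and cannot be compared directly. Vegfa, the vessel growth factor, was at 4.85 CPM in optic vesicle-like cells and under 20 CPM in each named class.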

How the data were processed

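Single cells of the ocular area were profiled in 5 libraries. Per the submitters' processing notes, the authors made the UMI counts with Cell Ranger (version not given in the sources used here) on mm10/GRCm38 and deposited raw counts of all libraries in 1 matrix. Barcodes with fewer than 1000 genes (0) or over 10% mitochondrial UMIs (22) were removed, as were 68 doublets called by Scrublet in scanpy 1.11.5 (0.832%, expected rate 6%). The 8104 cells were clustered on 2000 variable genes, 30 principal components and 15 neighbours with leidenalg 0.10.2 at resolution 1, and 27 clusters resulted. The marker lists were set first, but the scoring of clusters against them, and the exclusion of clusters with Malat1 under 1000 CPM, were set after the data had been seen. Classes may therefore differ from those of the authors. UMIs were summed per class and library, and CPM, exact Poisson, Poisson-ratio and Clopper-Pearson 95% intervals were computed with scipy 1.17.1. The script for the size rule was tested on simulated counts. Genes were described in every library of the optic vesicle-like class if they met the size rule in a comparison, belonged to a set of paralogs or were among the 5 widest between libraries. The members and gene lists were chosen with earlier results of these data known. Alternatives were size factors, totals without haemoglobin, ribosomal protein and mitochondrial UMIs, equal library weights, other filters, resolution 2, thinning to 5000 UMIs and leaving out each library. Gene positions are those of GENCODE on GRCm38. No p-values are given, since no stage has a replicate.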

Additional observations from a re-analysis of the deposited data

How the results depend on the processing

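No paired test was run. The library numbers are names without a stage, and such libraries were not treated as replicates. Classes are set side by side within libraries, with no p-value. Of 518 values of 38 ratios under alternatives, 482 kept direction and call, 36 kept direction but no longer met the size rule, and 0 reversed. Under all alternatives run 22 ratios kept the call. The cause of the changes was not tested. Counting the unnamed cluster of 460 cells as optic vesicle or the cluster led by Crym and Irx3 as crest, and leaving Pgk1, Eno1 and Aldoa out of the sum, were chosen after seeing the data. The count of members against other forebrain was 2, and it was 1 with size factors, without haemoglobin, ribosomal protein and mitochondrial UMIs, with equal library weights and with the unnamed cluster counted as optic vesicle. It was 1 to 3 when a library was left out. Against endothelium it was 8 without those UMIs and 11 with no low-level minimum. The share of all genes that met the rule was not computed under the alternatives. These counts therefore do not set the members apart from other genes. Without those UMIs the member sums were 19594 CPM in optic vesicle-like cells, 23392 in other forebrain, 16315 in ectoderm, 18551 in crest, 17189 in head mesoderm, 13298 in endothelium and 10903 in erythroid cells. Leaving out a library gave sums of 11062 to 15432, 14826 to 16198, 10114 to 11175, 11150 to 12886, 10345 to 12459, 8066 to 9618 and 3803 to 4453 CPM in the same order. Members with a wide library range were 3 to 7 in optic vesicle-like cells, 7 to 17 in crest, 9 to 15 in ectoderm, 2 to 6 in other forebrain, 7 to 15 in endothelium and 7 to 14 in erythroid cells, and 9 in erythroid cells with size factors. The share of all genes with a wide range was not computed under these alternatives. The library range of the sum was 1.54 to 3.70-fold in crest and 1.56 to 2.84-fold in endothelium. At resolution 2 the Ldhb share was 15% in optic vesicle-like cells and 2.78% in crest. With a library left out it was 10.3 to 19.7% and 1.56 to 3.18%, and the Slc2a3 share of both transporters was 11.2 to 20.3% in optic vesicle-like cells and 70.8 to 73.6% in ectoderm. Thinned to 5000 UMIs, Slc2a3 was found in 13.9% of optic vesicle-like and 66% of ectodermal cells, Slc2a1 in 50.9% of optic vesicle-like cells, and Ldhb in 78.6% of optic vesicle-like and 4.90% of endothelial cells.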
